A study of Mus musculus with 26 samples.

Results

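The genes described here code for the nuclear-encoded subunits of the mitochondrial respiratory chain, complexes I to IV, and of the ATP synthase, complex V. They were chosen by symbol alone, as those starting with Nduf and a subunit letter and number, Sdha to Sdhd, Uqcr, Cox4 to Cox8 or Atp5, without the 13 symbols marked as pseudogenes by -ps. The rule found 88 genes among 55254 symbols, of which 38 belong to complex I, 4 to complex II, 8 to complex III, 21 to complex IV and 17 to complex V. Ndufab1, Cyc1 and Fmc1 lie outside the rule, and the 13 subunits encoded by mitochondrial DNA were not analysed here. 85 of the 88 matched 1 gene of the GENCODE M21 annotation (GRCm38), on 19 nuclear chromosomes. 78 of the 88 passed a filter on low values (1 TPM or more in 5 or more libraries), as did 12034 genes in all. The rule let in 4 genes that this annotation calls processed pseudogenes, Ndufa11b, Ndufb4c, Ndufs6b and Cox6c2, and these 4 did not pass the filter.

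Whole inner cell masses (ICMs), 26 in all and 1 per library, had been taken from embryos of CD-1 mice and their polyadenylated RNA read along its full length with FLASH-seq, a low-input RNA-seq method. E2.75 morulae had spent 24 h in KSOM medium, the zona pellucida had been removed, and the outer cells had been lysed by immunosurgery. The 4 groups were DMSO, the vehicle (5 ICMs), 10 µM of the PI3K inhibitor LY294002 (LY, 7 ICMs), 1 µg/ml FGF4 and heparin (FGF4, 8 ICMs), and the 2 treatments combined (LY+FGF4, 6 ICMs). Embryos of 5 litters had been mixed before they were distributed, and the labels name no mutation or transgene. Values are TPM, transcript abundance scaled to the same total in every library, which keeps no read depth.

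Complex I (NADH dehydrogenase), complex II (succinate dehydrogenase), complex III and complex IV (cytochrome c oxidase) pass electrons from NADH and succinate to oxygen, and all of them except complex II pump protons across the inner mitochondrial membrane. Complex V lets the protons flow back through a rotating ring of c subunits and uses the rotation to make ATP in its catalytic F1 head. The mouse embryo inherits its mitochondria from the oocyte, and oxidative phosphorylation is known to rise as the blastocyst forms.

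Complex V held the most genes that changed, and within it 3 genes, Atp5g1, Atp5g2 and Atp5g3, code for the same mature c subunit. Their promoters are printed here because these genes share 1 mature protein, with that of Atp5b because it is the most abundant member. The sequences are the 250 bases before the RefSeq start (GRCm38.p6), 5′ to 3′ on the gene's strand, at chr11:96075632-96075881 (minus strand) for Atp5g1, chr15:102671048-102671297 (minus strand) for Atp5g2, chr2:73911327-73911576 (minus strand) for Atp5g3 and chr10:128083057-128083306 (plus strand) for Atp5b. Capitals mark a match to 1 of 5 motifs searched on both strands, which is the NRF1 palindrome in Atp5g2 and the ERR motif TCAAGGTCA, here on the opposite strand, in Atp5g3.
Atp5g1: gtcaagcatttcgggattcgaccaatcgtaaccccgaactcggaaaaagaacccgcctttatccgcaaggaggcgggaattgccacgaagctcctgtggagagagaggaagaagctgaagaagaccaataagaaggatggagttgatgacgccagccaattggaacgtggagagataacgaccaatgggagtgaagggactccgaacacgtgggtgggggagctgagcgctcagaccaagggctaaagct
Atp5g2: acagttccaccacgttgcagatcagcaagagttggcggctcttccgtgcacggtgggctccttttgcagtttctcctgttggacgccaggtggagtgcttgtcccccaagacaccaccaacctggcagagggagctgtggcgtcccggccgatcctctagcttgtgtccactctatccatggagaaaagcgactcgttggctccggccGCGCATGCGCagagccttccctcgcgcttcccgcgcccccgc
Atp5g3: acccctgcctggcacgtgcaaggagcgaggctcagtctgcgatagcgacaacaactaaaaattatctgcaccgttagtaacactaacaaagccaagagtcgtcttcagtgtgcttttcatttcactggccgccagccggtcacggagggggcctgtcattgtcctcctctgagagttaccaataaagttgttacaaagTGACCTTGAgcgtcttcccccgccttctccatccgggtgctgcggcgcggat
Atp5b: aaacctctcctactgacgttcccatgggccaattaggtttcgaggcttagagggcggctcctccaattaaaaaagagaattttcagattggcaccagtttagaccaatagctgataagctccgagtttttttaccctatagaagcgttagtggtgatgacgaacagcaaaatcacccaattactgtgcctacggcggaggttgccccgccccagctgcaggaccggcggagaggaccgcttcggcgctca
In this window Atp5g1 and Atp5b held none of the letters searched. Over the 66 tested members that have a RefSeq promoter entry, the NRF1 palindrome stood in 4 (6.06%: Ndufa11, Cox6a1, Atp5g2 and Atp5k), beside 1.99% of the promoters of 9090 tested genes. A looser form with the middle 2 bases free, which includes the palindrome, stood in 14 (21.2%) beside 12.8%. The ETS core CCGGAAGT stood in 3 (4.55% beside 7.49%), the YY1 core AAGATGGCG in 1 (1.52% beside 1.55%) and the ERR motif in 1, Atp5g3 (1.52% beside 0.319%). A match describes the letters only, and the absence of one says nothing about a factor.

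The members were among the abundant transcripts of the ICM. TPM is scaled for transcript length, so levels can be set side by side, but only roughly. Of the 78 tested members, 21 have a transcript of another gene at least 95% identical in part, and the handling of such reads is not known. The median mean level of the tested members over the 26 libraries was 219 TPM. Of the 78, 60 averaged at least 100 TPM, and 75 were above 0 in every library. Atp5b (3904 TPM) and Atp5a1 (2263 TPM), the catalytic and the structural subunits of the F1 head, stood far above the rest. Next came Sdha (994 TPM), the flavoprotein of complex II, Cox4i1 (804 TPM) and Ndufa4 (690 TPM) of complex IV, and Uqcrc1 (565 TPM), a core protein of complex III. In complex I the highest were Ndufs7 (522 TPM), a core subunit carrying an iron-sulphur cluster, and Ndufa9 (422 TPM), an accessory subunit. Members of 1 complex are made into an assembly of fixed proportions, yet their transcripts spread widely, from 70.2 to 3904 TPM in complex V, 56.7 to 522 TPM in complex I and 18.9 to 994 TPM in complex II.

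Most tissue-restricted copies went undetected. Cox4i2, Cox6a2, Cox7b2, Cox8b, Cox8c and Ndufa4l2 were listed at 0 in all 26 libraries. Of the 4 processed pseudogenes, Cox6c2 and Ndufa11b were also at 0 in all 26. Ndufb4c was listed above 0 in FGF4 replicate 7 (5.75 TPM) and LY+FGF4 replicate 2 (14.4 TPM), and Ndufs6b in LY+FGF4 replicate 3 (13.1 TPM). The testis form Cox6b2 was listed above 0 in 3 DMSO, 2 LY, 3 FGF4 and 2 LY+FGF4 libraries, at up to 33.6 TPM.

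Together the 78 tested and 10 untested members took 2.87% ± 0.317 of all TPM in DMSO (SD, n = 5), 2.82% ± 0.352 under LY (n = 7), 2.36% ± 0.269 under FGF4 (n = 8) and 2.21% ± 0.177 under both (n = 6). The summed TPM of complex V was 13318 ± 2277 in DMSO and 12014 ± 1717 in LY, against 9595 ± 1250 in FGF4 and 8553 ± 703 in LY+FGF4. For complex IV the sums were 5036 ± 732, 5651 ± 947, 3971 ± 724 and 4196 ± 508 in the same order. The sums of complex I were 6396 ± 545, 7401 ± 684, 6622 ± 809 and 6613 ± 461, lower with FGF4 where LY was present and not where it was absent. Complexes II and III were lowest in LY+FGF4 (1058 ± 440 and 1643 ± 156) and highest in DMSO (1810 ± 383 and 2180 ± 152). These sums weight each gene by its abundance, and Atp5b alone made up 41.2% of the complex V sum in DMSO and 31.2% in LY+FGF4.

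**Figure D1:**
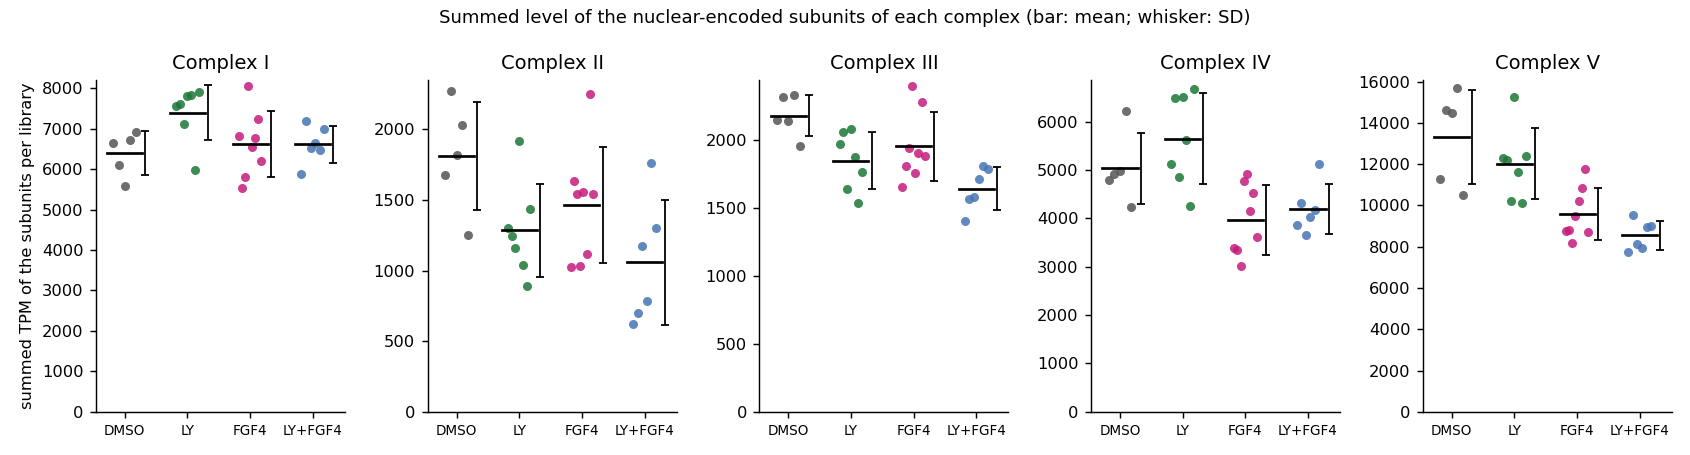
Summed TPM of the members of each complex (1 panel per complex, linear axis from 0) in every library, with 1 point per ICM, a bar at the group mean and a whisker of 1 SD. Complex V sums lay between 10136 and 15695 TPM in the 12 ICMs without FGF4 and between 7753 and 11786 TPM in the 14 with it.

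The effect of FGF4 could be measured in libraries without LY (FGF4 against DMSO) and, in other libraries, in the presence of LY (LY+FGF4 against LY). The mean of these differences, called the pooled FGF4 effect, was tested in the same limma fit of log2(TPM + 1) over all 12034 genes and 26 libraries, with Benjamini-Hochberg adjustment over all genes and a threshold of 0.05. In the pooled effect 16 members fell and 1 rose, where 8.63% of all tested genes fell and 4.39% rose. Of the 16, 7 belonged to complex V, 5 to complex IV, 3 to complex I and 1 to complex III. All 16 had a negative difference both without and with LY, which their choice by the mean of these differences largely sets beforehand. The median log2 difference was -0.48 over the 17 tested genes of complex V and -0.46 over the 14 of complex IV. It was -0.11 in complex I, -0.20 in complex II and -0.23 in complex III, beside -0.19 over all tested genes. In whole ICMs, fewer cells of a type and less RNA per cell cannot be told apart.

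Other measures differed between the groups as well. The summed TPM of 10 trophectoderm markers, the outer cells that immunosurgery removes, was 2084 ± 463 in DMSO, 2547 ± 339 under LY, 1163 ± 419 under FGF4 and 1509 ± 611 under both. The trophectoderm score was the mean log2(TPM + 1) of these markers. It was 6.77 ± 0.473, 6.29 ± 0.255, 5.44 ± 0.860 and 5.12 ± 1.32 in the same order. Under LY the score was thus lower than in DMSO, where the sum was higher. From DMSO to LY the means of Krt8, Cldn4, Tfap2c, Atp1b1 and Sfn rose and those of Cdx2, Krt18, Aqp3, Gata3 and Elf3 fell. Under FGF4 the means of Atp1b1 and Gata3 were above those in DMSO and the others below. Krt8, Cldn4, Sfn and Atp1b1 were above 0 in every library, and Cdx2 was listed at 0 in 2 FGF4 and 4 LY+FGF4 libraries. Of the primitive endoderm markers Gata6, Pdgfra, Sparc, Lamb1 and Dab2 were above 0 in all 26 libraries. Sox7 was listed at 0 in all libraries but 5 of the 8 FGF4 ones, Gata4 in 5 and Sox17 in 4 of the 7 LY ones. The list summed to 1024 ± 301 TPM in DMSO, 299.9 ± 75.5 under LY, 3334 ± 960 under FGF4 and 1774 ± 1030 under both. Epiblast markers summed to 971 ± 153 TPM, 783 ± 124, 245 ± 132 and 312 ± 101 in the same order. Fgf4 itself was listed at 0 in 7 of the 8 FGF4 and all 6 LY+FGF4 libraries. Sox2 averaged 25.5, 35.8, 20.2 and 40.9 TPM in that order, so it was highest in LY+FGF4. From DMSO to LY the means of Sox2 and Klf2 rose and those of Nanog, Fgf4, Prdm14, Utf1 and Tdgf1 fell. Under FGF4 all of these means were below those in DMSO. A list of oocyte-derived transcripts summed to 2640 ± 473 TPM in DMSO, 2290 ± 540 under LY, 1303 ± 364 under FGF4 and 1011 ± 199 under both, nearly all of it Khdc3, while Bmp15 was at 0 throughout. The oocyte-derived score, the mean log2(TPM + 1) of the list, was 2.73 ± 0.317, 2.50 ± 0.305, 2.17 ± 0.496 and 1.77 ± 0.337 in the same order. It weights each gene alike, and Nlrp5, Padi6, Zp3 and Gdf9 were listed at 0 in most libraries. Genes at 1 TPM or more numbered 10692 (median) in DMSO, 10089 under LY, 10504.5 under FGF4 and 8650.5 under both. By median FGF4 alone lay nearer DMSO than LY did. By mean it (10076 ± 967, lowest library 8315) lay close to LY (10084 ± 126) and below DMSO (10772 ± 477). LY+FGF4 was lowest by either measure (mean 8654 ± 705), and 6 libraries were under 9000. Of the 17 members called in the pooled FGF4 effect, 13 no longer passed when the number of genes was a covariate, 9 with the trophectoderm score and 9 with the oocyte-derived score. Over the 13 alternatives other than leaving out 1 library, all 17 kept their direction. The pooled differences reached values closer to 0 by over 1.5 times for Ndufv3 (-0.98 to -0.38), Ndufa3 (-1.43 to -0.68), Cox8a (-0.50 to -0.25), Uqcrfs1 (-0.66 to -0.35), Atp5c1 (-0.52 to -0.31) and Cox6b1 (-0.80 to -0.53). They ran from -0.73 to -0.55 for Cox5b, -1.14 to -0.73 for Ndufc2, -1.08 to -0.68 for Cox6a1, -1.08 to -0.64 for Atp5g2, -1.36 to -0.73 for Atp5j2, -0.51 to -0.36 for Atp5a1 and 0.60 to 0.88 for Atp5pb. Atp5b, Atp5d, Atp5g3 and Cox4i1 passed in each of the 3 covariate fits and in every run that left out 1 library. The part of the primitive endoderm and epiblast markers in the FGF4 differences was not tested.

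Within complex V, 4 of the 5 genes of the F1 head fell, and the head's median was -0.71. Atp5b, the catalytic beta subunit (GRCm38 chr10:128083273-128090391, plus strand), was at 4064, 6679, 6860, 6912 and 3471 TPM in DMSO replicates 3, 6, 7, 8 and 9. It ran from 3847 to 6759 TPM in LY (median 4494), from 2362 to 4461 TPM in FGF4 (median 2747) and from 2089 to 3236 TPM in LY+FGF4 (median 2701). All LY+FGF4 libraries lay below all LY libraries, whereas FGF4 overlapped DMSO. The pooled log2 difference was -0.82 ± 0.13 (SE, adjusted p = 0.000117), a level 1.76-fold lower. The difference was -0.84 ± 0.19 without LY (adjusted p = 0.0118) and -0.80 ± 0.18 with it (adjusted p = 0.00787). The call without LY was lost when DMSO replicate 6 or 7 was left out (adjusted p up to 0.0609, without replicate 7).

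Atp5d, the delta subunit at the foot of the central stalk, was the only member whose libraries did not overlap either without or with LY. Its levels were 509, 663, 526.5, 647 and 567.5 TPM in DMSO and 524 to 693 TPM in LY (median 548), against 226 to 486 TPM in FGF4 (median 356) and 257 to 445 TPM in LY+FGF4 (median 343). No FGF4 library reached the lowest DMSO library, and no LY+FGF4 library reached the lowest LY library. The pooled difference was -0.71 ± 0.11 (adjusted p = 0.000108, 1.64-fold lower), from -0.73 ± 0.16 without LY (adjusted p = 0.0118) and -0.70 ± 0.16 with LY (adjusted p = 0.00759). Atp5a1, the alpha subunit, was at 2566, 2977, 3227, 3018 and 2422 TPM in DMSO, 2032 to 2954 in LY, 1475 to 2670 in FGF4 and 1469 to 2081 in LY+FGF4. It fell in the pooled effect (-0.45 ± 0.09, adjusted p = 0.00151), and its fall with LY (-0.49 ± 0.13, adjusted p = 0.0194) was lost without LY+FGF4 replicate 2 (adjusted p = 0.0523). Atp5c1, the gamma subunit that turns inside the head, was at 603, 614, 670, 736 and 487 TPM in DMSO, 435 to 735 in LY, 374 to 664 in FGF4 and 288 to 467 in LY+FGF4, and fell by 0.48 (SE 0.11, adjusted p = 0.00602). For both genes the groups overlapped. Atp5e, the epsilon subunit, differed by -0.80 ± 0.28 without passing the test (adjusted p = 0.0619). Annotated exons of Atp5a1 and Atp5d overlap those of Haus1 and Cbarp, and without stated strand use their reads cannot be told apart.

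**Figure D2:**
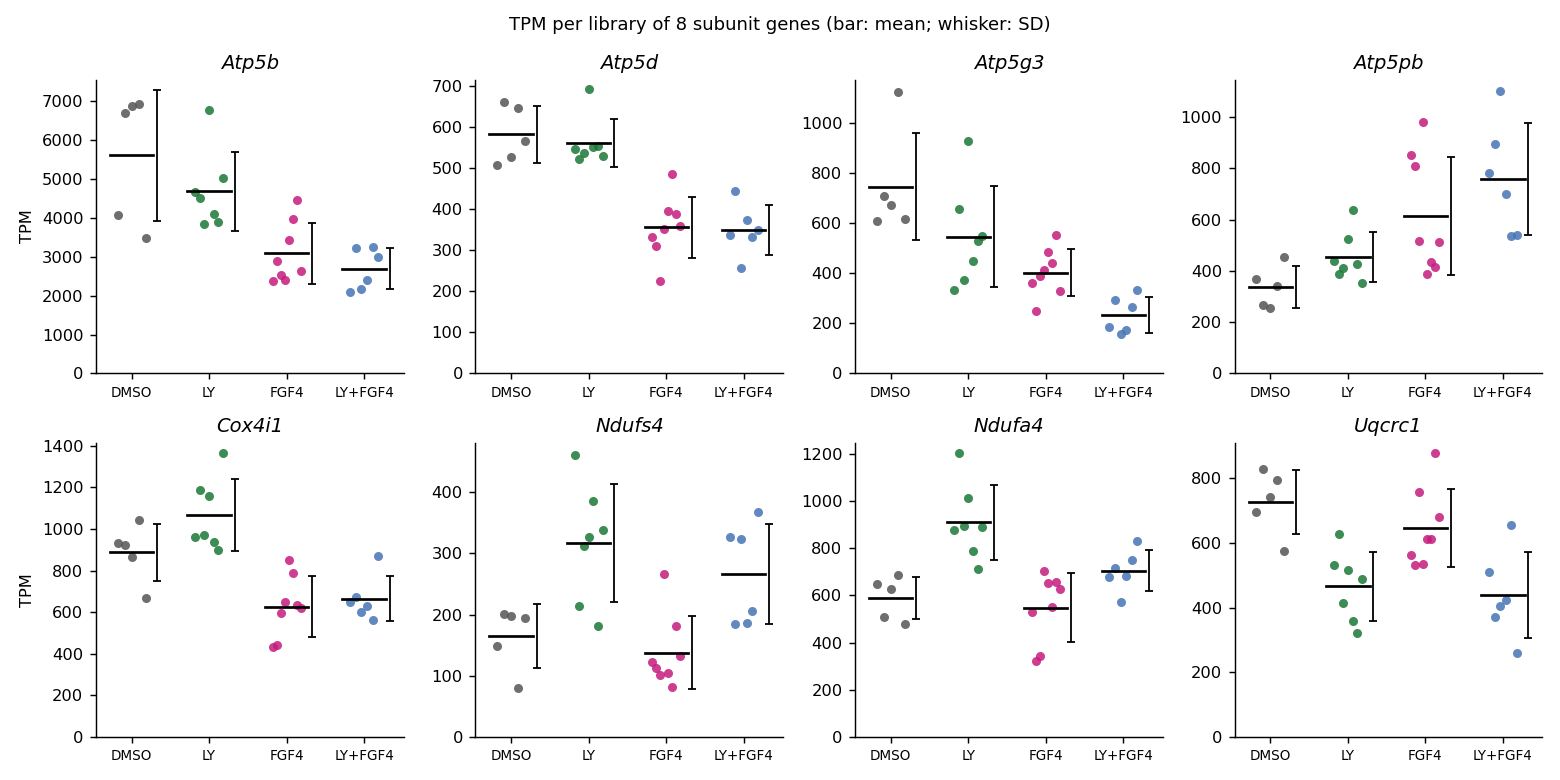
TPM of 8 members in every library (1 panel per gene, linear axis from 0), with 1 point per ICM, a bar at the group mean and a whisker of 1 SD. Atp5d lay at 509 to 693 TPM in all ICMs without FGF4 and at 226 to 486 TPM in all ICMs with it, while Atp5pb was lowest in DMSO (254 to 455 TPM) and highest in LY+FGF4 (535 to 1104 TPM).

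Of the c subunit genes, Atp5g3 and Atp5g2 fell with FGF4 and Atp5g1 was not called. Atp5g3 (chr2:73908447-73911326, minus strand) was at 608, 708, 671, 1122 and 616 TPM in DMSO and between 331 and 926 TPM in LY (median 530). In FGF4 it ranged from 248 to 552 TPM (median 401) and in LY+FGF4 from 157 to 333 TPM (median 225). All FGF4 libraries lay below all DMSO libraries. It fell in the pooled FGF4 effect by 1.04 on the log2 scale (SE 0.17, adjusted p = 0.00013, 2.06-fold lower), the largest fall with FGF4 among the called members that averaged at least 100 TPM. With LY present its difference was -1.20 (adjusted p = 0.00252). It was also the only member called in both pooled effects, falling by 0.64 with LY (SE 0.17, adjusted p = 0.0214), a call lost without DMSO replicate 8 (adjusted p = 0.0570).

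Atp5g2 (chr15:102662864-102672352, minus strand) was at 271, 218, 225, 225 and 234 TPM in DMSO and 153 to 378 TPM in LY, against 65.3 to 235 TPM in FGF4 and 59.6 to 200 TPM in LY+FGF4. These groups overlapped, and the pooled FGF4 difference was -0.96 ± 0.20 (adjusted p = 0.00171). Transcripts of 2 predicted genes, Gm10175 and Gm10231, are at least 95% identical to Atp5g2 and amounted to 52.7% of its level, so its own level is uncertain. With these copies added the pooled difference of Atp5g2 was -1.08. Atp5g1 (chr11:96068852-96075670, minus strand) was at 158, 153, 142, 232 and 184 TPM in DMSO, 105 to 258 in LY, 132 to 329 in FGF4 and 141 to 362 in LY+FGF4. Its groups overlapped, and its pooled FGF4 difference was 0.36 ± 0.19 (adjusted p = 0.214). Whether the c subunit genes differ in their response was not tested.

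As a share of the summed c subunit TPM, Atp5g1 made up 15.1% ± 1.62 in DMSO, 18.5% ± 5.02 under LY, 30.5% ± 7.39 under FGF4 and 38.3% ± 9.39 under both. The 5 DMSO libraries ranged from 13.7% to 17.8% and the LY+FGF4 libraries from 26.4% to 51%, with no overlap between them. The share of Atp5g3 went from 63.9% ± 5.02 in DMSO to 53.9% ± 11.3 under LY, 51.1% ± 9.29 under FGF4 and 40.9% ± 13.7 under both, while that of Atp5g2 stayed between 18.3% and 27.6% on average. The sum itself was 1154 ± 239 TPM in DMSO, 994 ± 201 under LY, 786 ± 123 under FGF4 and 586 ± 118 under both. The shares are given as a description, since they were formed after the values had been seen.

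**Figure D3:**
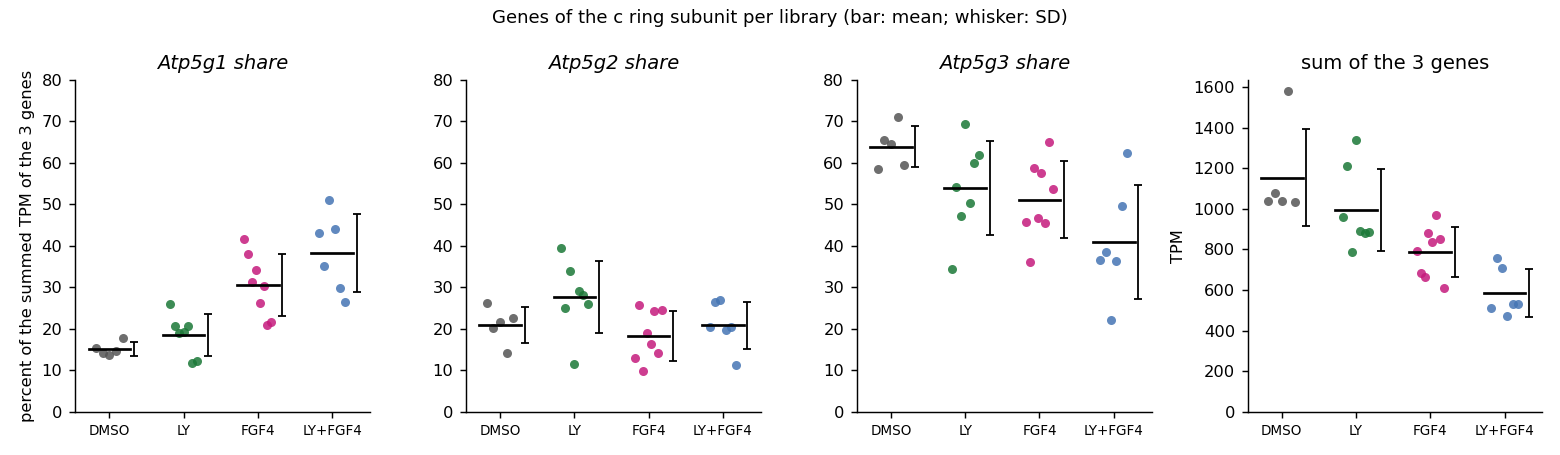
Share in percent of Atp5g1, Atp5g2 and Atp5g3 in their summed TPM, and that sum in TPM, in every library, with 1 point per ICM, a bar at the group mean and a whisker of 1 SD. Atp5g1 made up 13.7% to 17.8% in DMSO and 26.4% to 51% in LY+FGF4, and the sum averaged 1154 TPM in DMSO and 586 TPM in LY+FGF4.

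In the peripheral stalk, which holds the F1 head still against the rotor, no gene was called lower. Its subunit b, Atp5pb, was the only member that rose in the pooled FGF4 effect (0.76 ± 0.16, adjusted p = 0.00209, 1.70-fold higher). Atp5pb had no match by symbol in GENCODE M21, so near-identical copies and exon overlaps were not checked for it. It was at 369, 269, 254, 340 and 455 TPM in DMSO, 353 to 639 TPM in LY (median 429), 387 to 980 TPM in FGF4 (median 516) and 535 to 1104 TPM in LY+FGF4 (median 740). All LY+FGF4 libraries lay above all DMSO libraries. Neither difference passed alone, at 0.81 without LY (adjusted p = 0.0537) and 0.71 with LY (adjusted p = 0.0528). The other stalk genes differed by 0.12 (Atp5o, adjusted p = 0.515), 0.20 (Atp5j, adjusted p = 0.416) and -0.25 (Atp5h, adjusted p = 0.318). All 5 accessory subunits of the membrane part had negative differences, beside 60.8% of all tested genes, with a median of -0.68. Among them Atp5j2, subunit f, fell by 1.01 (SE 0.26, adjusted p = 0.00893). It was at 124, 138, 135, 160 and 124 TPM in DMSO, 97.3 to 298 TPM in LY, 19.6 to 169 TPM in FGF4 and 40.4 to 114 TPM in LY+FGF4, with FGF4 overlapping DMSO.

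In complex IV 13 of 14 tested genes had a negative pooled FGF4 difference, beside 60.8% of all tested genes. In the test 5 of the 14 fell, beside 8.63% of all tested genes. Cox4i1 (chr8:120668222-120674207, plus strand), the largest nuclear-encoded subunit, was at 934, 924, 865, 1045 and 667 TPM in DMSO and 896 to 1366 TPM in LY (median 969). It was at 432 to 849 TPM in FGF4 (median 626) and 560 to 870 TPM in LY+FGF4 (median 640). With LY present the groups did not overlap, while FGF4 overlapped DMSO through DMSO replicate 9. The pooled difference was -0.60 ± 0.11 (adjusted p = 0.00078, 1.52-fold lower), from -0.68 ± 0.16 with LY (adjusted p = 0.01) and -0.52 without it (adjusted p = 0.0851). Annotated exons of Cox4i1 overlap those of Emc8, which had 122 TPM.

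Cox6a1, an accessory subunit, was at 322, 359, 419, 616 and 338 TPM in DMSO, 320 to 621 TPM in LY, 135 to 294 TPM in FGF4 and 150 to 365 TPM in LY+FGF4. FGF4 lay wholly below DMSO, and the pooled difference was -0.81 ± 0.17 (adjusted p = 0.00246). Cox6b1, which faces the intermembrane space, was at 575, 759, 557, 803 and 477 TPM in DMSO, 450 to 1199 in LY, 219 to 647 in FGF4 and 262 to 522 in LY+FGF4 (pooled difference -0.80 ± 0.18, adjusted p = 0.00394). Its groups overlapped. Cox5b, a zinc-binding matrix subunit, was at 294, 336, 374, 477 and 262 TPM in DMSO, 230 to 464 in LY, 152 to 327 in FGF4 and 172 to 318 in LY+FGF4 (pooled difference -0.62 ± 0.15, adjusted p = 0.0077). Cox8a, the smallest subunit, differed by -0.49 ± 0.15 (adjusted p = 0.0356), with levels of 590, 615, 762, 672 and 511 TPM in DMSO, 482 to 641 in LY, 219 to 696 in FGF4 and 239 to 562 in LY+FGF4. For Cox5b and Cox8a the groups overlapped. The Cox8a call was lost without any 1 of DMSO replicates 3, 6, 7 and 8, LY replicates 2 and 3, FGF4 replicate 8 and LY+FGF4 replicates 2 and 5 (adjusted p up to 0.0724, without DMSO replicate 7). The highest difference of the complex was that of Cox7c, at 0.29 (adjusted p = 0.308).

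**Figure D4:**
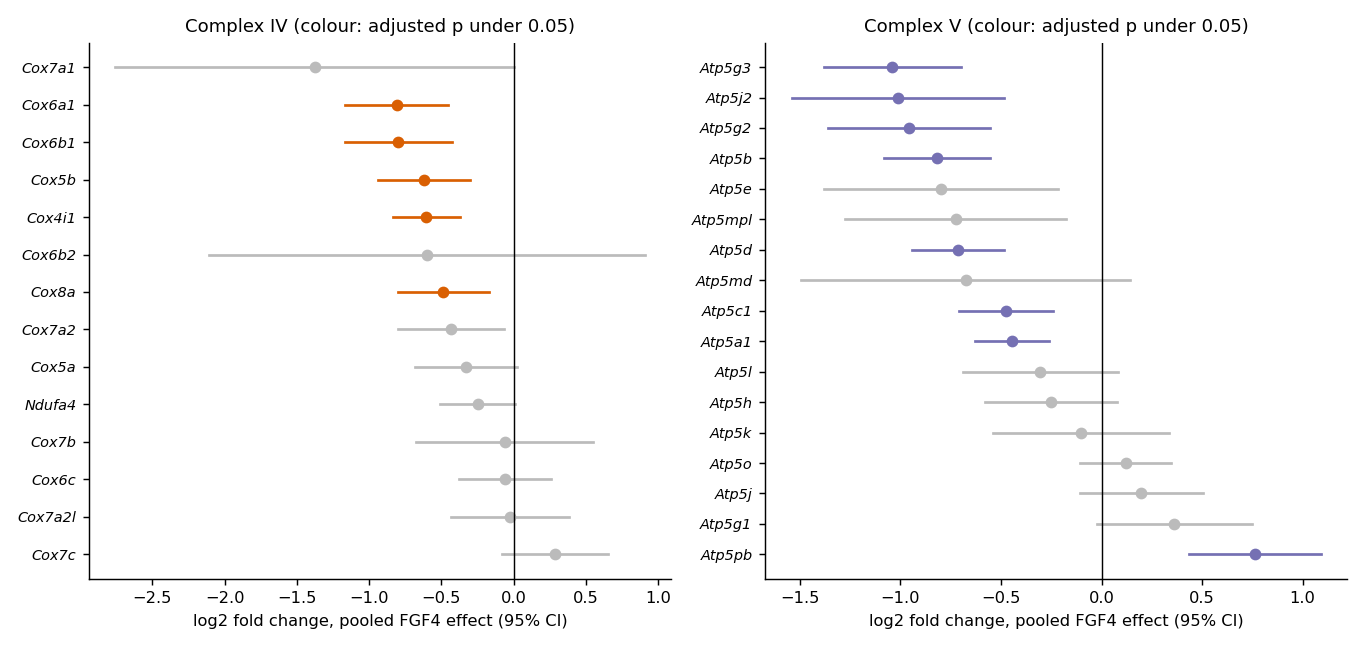
Pooled FGF4 difference in log2(TPM + 1) of each tested gene of complexes IV and V, with its 95% confidence interval from the limma fit, coloured where the adjusted p was under 0.05. 12 genes fell, led by Atp5g3 at -1.04 and Atp5j2 at -1.01, and Atp5pb rose by 0.76.

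In complex I 3 of 35 tested genes fell with FGF4, a share close to the 8.63% of all tested genes that fell. All 3 were accessory subunits, with means of 62.6 to 68.8 TPM over all libraries. Ndufa3, of the membrane arm, was at 60.7, 73.7, 118, 79.3 and 69.3 TPM in DMSO, 45.1 to 159 TPM in LY, 8.20 to 62.2 TPM in FGF4 and 9.26 to 118 TPM in LY+FGF4. FGF4 overlapped DMSO by a single library, and the pooled difference was -1.39 ± 0.35 (adjusted p = 0.00849). Annotated exons of Ndufa3 overlap those of Tfpt, which had 82.5 TPM. Ndufc2, also of the membrane arm, was at 127, 73.3, 73.5, 149 and 72.8 TPM in DMSO, 52.9 to 124 in LY, 28.2 to 91.2 in FGF4 and 20.7 to 50.3 in LY+FGF4 (pooled difference -0.85 ± 0.21, adjusted p = 0.00845). All LY+FGF4 libraries lay below all LY libraries. Ndufv3, of the NADH-binding module, was at 78, 130, 58.5, 72.7 and 63.3 TPM in DMSO, 35.0 to 113 in LY, 20.3 to 91.6 in FGF4 and 10.98 to 76.1 in LY+FGF4 (pooled difference -0.93 ± 0.30, adjusted p = 0.0399). The Ndufv3 call did not hold for 14 of the 26 single-library omissions, namely DMSO 3, 6 and 8, LY 3, 4, 5, 6 and 8, FGF4 2, 3, 5 and 6 and LY+FGF4 2 and 8 (adjusted p up to 0.0883, without DMSO replicate 6). The abundant core subunit Ndufs7 was at 539, 450, 482, 508 and 594 TPM in DMSO and 410 to 696 TPM in FGF4, with a pooled difference of -0.15 ± 0.14 (adjusted p = 0.516). Ndufa9 differed by -0.14 (adjusted p = 0.569). Among the complex I genes that were not called, the highest difference was that of Ndufa1 (0.94, adjusted p = 0.24). Ndufa1, a small membrane subunit, varied widely, from 21.4 to 183 TPM in FGF4, and was listed at 0 in LY replicate 5. Ndufb6, of the membrane arm, had the highest difference of the complex in FGF4 against DMSO (0.65, adjusted p = 0.0891).

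In complex III 1 of 8 tested genes fell, beside 8.63% of all tested genes. This was the Rieske iron-sulphur protein Uqcrfs1, which carries electrons to cytochrome c1. It was at 321, 352, 240, 299 and 312 TPM in DMSO, 171 to 301 TPM in LY, 92.7 to 238 TPM in FGF4 and 78.6 to 253 TPM in LY+FGF4. FGF4 lay just below DMSO in every library. The pooled difference was -0.66 ± 0.17 (adjusted p = 0.00971). The other genes of the complex ran from -0.58 (Uqcrb, adjusted p = 0.109) to 0.31 (Uqcrq, adjusted p = 0.512). Genes with transcripts nearly identical to Uqcrb's amounted to 48.8% of its level, so that its own level is uncertain. Uqcr10, a small accessory subunit abundant in every group, differed by -0.11 (adjusted p = 0.718). No gene of complex II passed. Sdha was at 1235, 1856, 1341, 1511 and 905 TPM in DMSO, 660 to 1512 in LY, 607 to 1717 in FGF4 and 344 to 1395 in LY+FGF4. Its pooled differences were -0.51 for FGF4 (adjusted p = 0.0914) and -0.65 ± 0.20 for LY (adjusted p = 0.0553). All 4 genes of complex II had a negative pooled LY difference, beside 62.7% of all tested genes. Their median was -0.35, beside -0.18 over all tested genes. Sdhb, the iron-sulphur subunit, was at 346, 301, 339, 316 and 215 TPM in DMSO and differed by 0.10 with FGF4 (adjusted p = 0.668). Of the membrane anchors, Sdhd differed by -0.63 with FGF4 (adjusted p = 0.115), and Sdhc ran from 3.72 to 113 TPM within LY+FGF4 alone.

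Taken separately, FGF4 against DMSO gave 4 changed members, Atp5b, Atp5d, Atp5g3 and Cox6a1, all lower, where 2.44% of all tested genes changed and 1.46% fell. The count was 1 or 2 without any 1 of DMSO replicates 3, 6, 7 and 8 or FGF4 replicates 1, 2, 3, 4 and 8, and 7 without FGF4 replicate 6. Atp5g3 (-0.89 ± 0.24, adjusted p = 0.0392) and Cox6a1 (-0.91 ± 0.25, adjusted p = 0.0443) were each lost in 10 of the 13 runs that left out 1 library, DMSO replicate 9 among them, with adjusted p up to 0.144 and 0.153, both without DMSO replicate 8. Atp5b was lost without DMSO replicate 6 or 7 (adjusted p up to 0.0609). With LY present 9 members changed, all lower, where 6.30% of tested genes changed and 4.50% fell. They were Atp5a1, Atp5b, Atp5c1, Atp5d, Atp5g2, Atp5g3, Cox4i1, Cox6b1 and Ndufc2. The call of Ndufc2 (-1.09, adjusted p = 0.0262) was lost without LY+FGF4 replicate 3 or 5 or LY replicate 8 (adjusted p up to 0.0613). That of Cox6b1 (-0.85, adjusted p = 0.0415) was lost without any 1 of LY replicates 3, 4, 5 and 8 or LY+FGF4 replicates 2, 5, 6 and 7 (adjusted p up to 0.0941). Members whose libraries did not overlap at all were Uqcrfs1, Cox6a1, Atp5d and Atp5g3 without LY (4 of 78, beside 1.63% of tested genes) and Ndufc2, Cox4i1, Atp5d and Atp5b with LY (4 of 78, beside 1.21%). In LY+FGF4 against FGF4 no member separated the groups (0 of 78, beside 0.640%).

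Since the FGF4 differences with and without LY share no library, their signs can be compared. They matched for 61 of 78 members (78.2%), of which 46 were lower and 15 higher in both, beside 66.9% of all tested genes. By complex, signs matched for 16 of 17 genes in complex V, 11 of 14 in complex IV, 8 of 8 in complex III, 3 of 4 in complex II and 23 of 35 in complex I. The interaction, the LY effect with FGF4 minus that without it, was called for 0 members (0.0499% of tested genes). At an unadjusted p under 0.05 it held 3 members, all negative: Ndufa5 (-1.12), Ndufb6 (-0.62) and Ndufs8 (-0.81), beside 6.03% of tested genes in either direction and 3.78% that were negative.

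**Figure D5:**
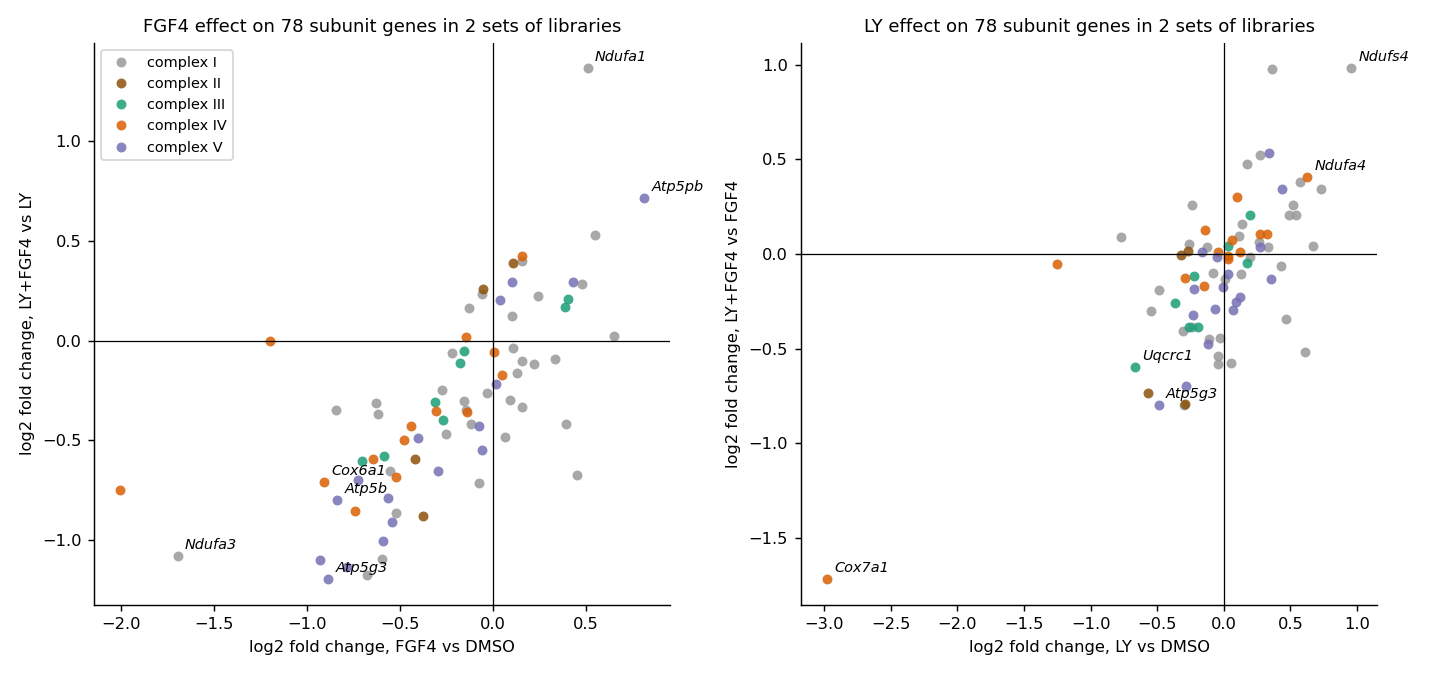
Log2 differences of the 78 tested members, coloured by complex. The left panel sets FGF4 against DMSO (x axis) beside LY+FGF4 against LY (y axis), where 61 of 78 had matching signs, and the right panel sets LY against DMSO beside LY+FGF4 against FGF4, where 55 of 78 had matching signs.

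LY changed fewer members, and in both directions. In LY against DMSO 0 members were called, where 0.374% of tested genes were. At an unadjusted p under 0.05 there were 7 higher (2.81% of tested genes) and 2 lower (5.78%), with 8.59% of tested genes in all. The 7 were Ndufa12, Ndufs4, Ndufb6, Ndufb9, Ndufb4 and Ndufv2 of complex I and Ndufa4, and the 2 were Uqcrc1 and Cox7a1. In LY+FGF4 against FGF4, Ndufs4 rose (0.98 ± 0.27, adjusted p = 0.0386) and Atp5g3 fell (-0.80 ± 0.22, adjusted p = 0.0428), where 3.55% of tested genes changed, 0.723% higher and 2.83% lower. Both calls were lost without any 1 of LY+FGF4 replicates 2 and 5 or FGF4 replicates 1, 3, 5, 6 and 8. Ndufs4 was also lost without LY+FGF4 replicate 8 or FGF4 replicate 2, and Atp5g3 without LY+FGF4 replicate 6 or FGF4 replicate 4 or 7. The adjusted p reached 0.0881 for Ndufs4 (without LY+FGF4 replicate 8) and 0.0977 for Atp5g3 (without LY+FGF4 replicate 5). The pooled LY effect, formed like that of FGF4, had 3 members that rose and 3 that fell, where 1.04% of tested genes rose and 3.60% fell (4.64% in all). Signs of the LY difference without and with FGF4 matched for 55 of 78 members (70.5%), beside 62.1% of tested genes. The primitive endoderm marker sum was lower with LY as well, at 299.9 ± 75.5 against 1024 ± 301 TPM without FGF4 and 1774 ± 1030 against 3334 ± 960 TPM with it, and its part in the LY differences was not tested.

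Ndufs4 (chr13:114287795-114388258, minus strand), an accessory subunit of the NADH-oxidising arm whose loss causes a mitochondrial encephalopathy in mice, had the largest rise with LY among the called members. It was at 149, 202, 198, 80.03 and 195 TPM in DMSO and 182 to 461 TPM in LY (median 327), and at 82.0 to 267 TPM in FGF4 (median 117) and 185 to 368 TPM in LY+FGF4 (median 265). The LY groups lay higher than their counterparts, with overlap, and the pooled LY difference was 0.97 ± 0.20 (adjusted p = 0.00463, 1.96-fold higher). Ndufa4 (chr6:11900292-11907497, minus strand), first described in complex I and now placed in complex IV, was at 647, 507, 625.4, 686 and 479 TPM in DMSO and 712 to 1202 TPM in LY (median 889). It was at 321 to 704 TPM in FGF4 and 573 to 833 TPM in LY+FGF4. All LY libraries lay above all DMSO libraries, as they did for Ndufv2 (2 of 78 members higher without overlap, beside 0.806% of tested genes). The pooled LY difference of Ndufa4 was 0.52 ± 0.13 (adjusted p = 0.0161, 1.43-fold higher). Ndufa12, a complex I accessory subunit, was at 201, 133, 125, 186 and 202 TPM in DMSO, 202 to 401 in LY, 105 to 251 in FGF4 and 152 to 308 in LY+FGF4 (0.54 ± 0.15, adjusted p = 0.0368). That call was lost without any 1 of DMSO replicates 6 and 7, LY replicates 5, 6 and 7, FGF4 replicate 1 and LY+FGF4 replicates 7 and 8 (adjusted p up to 0.0803).

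Uqcrc1 (chr9:108936633-108949623, plus strand) fell with LY. It was at 694, 828, 743, 795 and 574 TPM in DMSO and 321 to 628 TPM in LY (median 490), and at 533 to 878 TPM in FGF4 (median 612) and 260 to 654 TPM in LY+FGF4 (median 415). Groups overlapped at their edges, and the pooled LY difference was -0.63 ± 0.13 (adjusted p = 0.00548, 1.55-fold lower). Cox7a1 (chr7:30184144-30186078, plus strand), the heart and skeletal muscle form of subunit 7a, was low and patchy. It was listed at 13.5, 36.9, 24.9, 43.0 and 24.4 TPM in DMSO, and in LY at 23.8, 17.3 and 13.2 TPM in replicates 3, 5 and 6 and at 0 in the other 4. In FGF4 it was listed at 8.05, 0, 13.3, 20.7, 0, 17, 4.59 and 16.5 TPM, and in LY+FGF4 at 7.02 and 9.28 TPM in replicates 6 and 7 and at 0 in the other 4. Its pooled LY difference was -2.35 ± 0.67 (adjusted p = 0.0404). The Cox7a1 call was lost in all runs that left out 1 library except those without LY replicate 3, 5 or 6, FGF4 replicate 2 or 5, or LY+FGF4 replicate 6 or 7 (adjusted p up to 0.0754, without DMSO replicate 8). At these levels a value of 0 can be a failed estimate.

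Other genes of the pathway were read from lists of assembly factors, carriers and enzymes. Of 58 tested assembly factors 3 were called in the pooled FGF4 effect, all lower, beside 8.63% of all tested genes that fell, and the list median was -0.27 beside -0.19. Tmem70, a membrane protein needed to build the c ring, fell by 1.04 (SE 0.18, adjusted p = 0.000291), from 815 ± 93.4 TPM in DMSO to 440 ± 198 TPM in FGF4. The others were Cmc2 (-0.70, adjusted p = 0.0275), a complex IV factor, and Uqcc3 (-1.03, adjusted p = 0.0443), a complex III factor. Tmem70 rose with LY (0.63, adjusted p = 0.0381), to 1321 ± 329 TPM in LY. It was the only 1 of the 58 assembly factors called in the pooled LY effect, beside 4.64% of all tested genes.

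Of 8 tested genes that exchange nucleotides and phosphate with the matrix, 3 fell with LY and 2 with FGF4. Of all tested genes, 3.60% fell with LY and 8.63% with FGF4. Slc25a5, an ATP/ADP carrier, fell with LY by 1.00 (adjusted p = 0.000323), from 914 ± 230 TPM in DMSO to 431 ± 111 TPM in LY. It was lower with LY both without FGF4 (-1.09, adjusted p = 0.0264) and with it (-0.91, adjusted p = 0.0167). Vdac3, a channel of the outer membrane, fell with LY by 0.32 (adjusted p = 0.0381). With FGF4, Slc25a3, the phosphate carrier, fell by 0.49 (adjusted p = 0.0024), and Vdac1, another such channel, fell by 0.51 (adjusted p = 0.00725). Among 18 citric acid cycle and pyruvate dehydrogenase genes Dld (0.55) and Idh3a (0.45) rose with FGF4 and Sucla2 (-0.54) fell, beside 4.39% and 8.63% of all tested genes. Of the 18, Idh3a fell with LY (-0.56), beside 3.60% of all tested genes. Cyc1, the cytochrome c1 of complex III, also fell with LY (-0.64, adjusted p = 0.0453), beside the same 3.60%. Of 20 genes for mobile carriers and coenzyme Q, Etfa fell with FGF4 (-0.57, adjusted p = 0.014), beside 8.63% of all tested genes. Of 12 for expression of mitochondrial DNA, Polg, its polymerase, rose with FGF4 (1.15, adjusted p = 0.0146), beside 4.39%. Of 7 tested regulators 1 fell with FGF4, beside 8.63% of all tested genes. This was Esrra, a nuclear receptor that activates genes of oxidative metabolism (-1.45 ± 0.41, adjusted p = 0.018), with a mean of 26.2 TPM. Of 78 tested mitochondrial ribosome genes 4 rose and 9 fell with FGF4, beside 4.39% and 8.63% of all tested genes, with a median of -0.21 beside -0.19. With LY 3 were called, all lower, beside 3.60% of all tested genes that fell.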

How the data were processed

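The study crossed LY294002 with added FGF4 in 26 single-ICM libraries (DMSO 5, LY 7, FGF4 8, LY+FGF4 6). The deposited values are TPM per gene symbol, computed by the authors. Reads were trimmed and de-duplicated per the labels' protocols, and the submitters' processing notes name STAR, RSEM and mm10. No source used here gives versions, annotation or strand use. TPM keeps no read depth, so no counting error could be given, and its precision was judged from the spread between ICMs. Each library is a separate embryo of unknown litter.

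Differences were tested with limma 3.58.1 (R 4.3.3) on log2(TPM + 1), with the trend and robust options, for genes that reached 1 TPM in 5 or more libraries. The 4 group means were fitted together and 7 contrasts tested, two-sided, with Benjamini-Hochberg adjustment over all 12034 genes at 0.05. Fold changes on the log2(TPM + 1) scale understate those of low genes. The pooled effects average the difference without and with the other agent. The procedure was tested on simulated data.

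Members and gene lists were chosen with earlier results of these data known. Members named are those called in any contrast, the 2 most abundant and the extremes of each complex, and tissue-restricted copies. Some values are not reported here. Transcripts at least 95% identical over at least 150 bases (blastn 2.17.0), exon overlaps and positions come from GENCODE M21, which may not be the authors' annotation. Promoters come from RefSeq. Alternatives covered the pseudocount, filter, scaling, limma options, library weights, a replicate block, covariates and leaving out libraries. The oocyte-derived score and the added copies were chosen after seeing the data.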

Additional observations from a re-analysis of the deposited data

Results flagged for a closer look

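Single libraries stood apart in 19 of 164 groups of values tested. Chance gives about 1 in 20 for normally distributed values, but TPM was used without a log, so these rates cannot be compared. A library was picked out when its gap to the nearest other exceeded Dixon's 95% critical value for the group. Sdhc, a membrane anchor of complex II, did so in all 4 groups, at 73.7 TPM in DMSO replicate 8, 17.7 TPM in LY replicate 4, 56.4 TPM in FGF4 replicate 5 and 113 TPM in LY+FGF4 replicate 8, each the highest of its group.

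In complex V, Atp5b (6759 TPM) and Atp5d (693 TPM) were highest in LY replicate 5, Atp5g3 in DMSO replicate 8 (1122 TPM) and Atp5j2 in LY replicate 3 (298 TPM). In complex IV, Cox4i1 was highest in LY+FGF4 replicate 8 (870.2 TPM) and Cox6b2 in LY replicate 3 (33.6 TPM). In complex III, Uqcr10 was lowest in DMSO replicate 9 (336 TPM) and highest in FGF4 replicate 4 (676 TPM), and Uqcr11 was highest in LY replicate 5 (359 TPM).

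In complex I, the summed TPM of LY replicate 7 (5971) lay below the other LY libraries. Ndufa1 was highest in LY replicate 3 (172 TPM) and in LY+FGF4 replicate 5 (140.5 TPM), Ndufb6 in FGF4 replicate 4 (410.4 TPM), Ndufc2 in LY replicate 8 (124 TPM) and Ndufv3 in DMSO replicate 6 (130.2 TPM).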

How the results depend on the processing

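Over 2058 refits of single members, 1794 stayed on their side of the threshold, 247 fell below it and 17 rose above it. A change of direction was counted only where the main fit or the refit called the result, and there were 0 of these. The refits covered 66 results, called and not called in the main fit. An uncalled result that stayed uncalled counted among the 1794, whatever its direction. All 247 losses came from called results, so the share lost among these was larger than over all refits. The count of members called in the pooled FGF4 effect (17) was 15 to 21 without 1 library, 4 with the number of genes listed as covariate and 8 with either the trophectoderm or the oocyte-derived score. The pooled LY count (6) was 4 to 8 without 1 library, 3 without limma's trend and robust options, 3 with the replicate block, 2 with the number of genes and 1 without the 6 libraries under 9000 genes. FGF4 against DMSO (4) gave 1 to 7 without 1 library, 2 with no filter, 0 without trend and robust options, 10 with library weights, 0 with the replicate block, 2 with the number of genes, 0 with the trophectoderm score and 2 without the 6 libraries. LY+FGF4 against LY (9) gave 7 to 12 without 1 library, 4 without trend and robust options, 4 with library weights, 0 with the number of genes, 4 with the trophectoderm score and 3 with the oocyte-derived score. LY+FGF4 against FGF4 (2) gave 0 to 4 without 1 library, 1 with a pseudocount of 10, with the number of genes or with the trophectoderm score, and 0 with no filter, without trend and robust options, with library weights, with the replicate block, without the 6 libraries or when only these groups were fitted. LY against DMSO (0) gave 0 to 0 without 1 library, 7 with library weights and 1 without the 6 libraries. The interaction stayed at 0 throughout, and the cause of these shifts was not tested.

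Libraries of the same replicate number did not deviate together (31 pairs, median r -0.00406, from -0.0824 to 0.0680), and 2 of 26 libraries correlated best with their own number, so the numbers were not taken as pairs. With the replicate block, Atp5j2, Cox8a, Ndufv3 and Uqcrfs1 were no longer called in the pooled FGF4 effect, nor Atp5g3, Cox7a1, Ndufa12 and Ndufa4 in the pooled LY effect. TPM keeps no depth, and zeros of Cox7a1 and Cox6b2 cannot be told from missed transcripts.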

Other observations

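Some values belonged to no comparison, and they were chosen after the data had been seen. The ratio of Atp5b to Atp5pb, the catalytic subunit over the stalk subunit b, was 18.2 ± 8.52 in DMSO (7.63 to 27.1), 10.6 ± 2.60 under LY, 5.94 ± 3.20 under FGF4 and 3.87 ± 1.60 under both (1.96 to 6.05), so the DMSO and LY+FGF4 libraries did not overlap. Both transcripts belong to the same enzyme, and Atp5pb was not checked for near-identical copies or exon overlaps. The ratio of Atp5b to Atp5a1, the partners that alternate around the F1 head, changed less, from 1.94 ± 0.398 in DMSO and 1.92 ± 0.206 in LY to 1.42 ± 0.213 in FGF4 and 1.55 ± 0.150 in LY+FGF4.

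Around their group means, members co-varied weakly over the 26 libraries. The median r was 0.129 over 3003 pairs of members, of which 67.8% were positive, and it was 0.165 within complex IV, 0.126 within complex V, 0.110 within complex I and -0.0455 within complex III. All pairs share libraries and their scaling. The median residual SD of a member was 0.458 on the log2 scale, beside 0.517 for genes of like level.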
